A study of Mus musculus with 4 samples.

Results

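The genes followed here make pulmonary surfactant and its storage organelle, and were read in single-nucleus RNA-Seq of mouse lung. They are the 4 surfactant protein genes Sftpa1, Sftpb, Sftpc and Sftpd, the processing protease gene Napsa, the lamellar body genes Abca3 and Lamp3, and the lipid supply genes Slc34a2 and Lpcat1. They were taken by their symbols, 9 of the 32285 genes in the count tables. Lungs came from 2 WT mice (C57/BL6J) and 2 VEcad-TRF2DN-Tg (Tg) mice, all male, 8 to 9 weeks old and kept in chronic hypoxia. The Tg mice were heterozygous for a transgene in which the VE-cadherin promoter drives a dominant-negative form of TRF2, a telomere protein, in endothelial cells (ECs). Each library was 1 mouse, so that every comparison between genotypes rests on 2 mice against 2.

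Surfactant is a film of phospholipid and protein that lowers surface tension in the alveolus. It is made by alveolar type 2 (AT2) cells, which assemble it in lamellar bodies, lysosome-related organelles, and release it by exocytosis. Surfactant proteins B and C are small hydrophobic proteins cut from larger precursors and packed with the lipid. Surfactant proteins A and D are collectins, lectins that bind microbes and also regulate the lipid pool, and club cells of the airway are known to make some of these proteins as well.

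The genes differ in length, and reads in introns were counted. In GENCODE M21 on build GRCm38, the short ones were Sftpc (chr14:70520949-70524081, minus strand, 3.13 kb from first to last base) and Sftpa1 (chr14:41131782-41136452, plus strand, 4.67 kb). Sftpb (chr6:72304610-72314371, plus strand), Sftpd (chr14:41172214-41185149, minus strand) and Napsa (chr7:44572380-44586862, plus strand) measured 9.76, 12.9 and 14.5 kb. Slc34a2 (chr5:53038081-53071664, plus strand), Lpcat1 (chr13:73467197-73516422, plus strand), Lamp3 (chr16:19653378-19706375, minus strand) and Abca3 (chr17:24351950-24410201, plus strand) measured 33.6, 49.2, 53.0 and 58.3 kb. No member overlapped another annotated gene on its own strand, and Napsa, Abca3 and Slc34a2 overlapped other annotated genes on the opposite strand.

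NKX2-1 and the FOXA factors are transcription factors known to act on surfactant promoters. The 250 bases before the RefSeq start (GRCm38.p6) were therefore searched on both strands for CTCAAG, the core of an NKX2-1 element, and TGTTTNC, a FOXA core. Sequences were at hand for 6 of the 9 genes, Sftpa1, Sftpb, Abca3, Lamp3, Slc34a2 and Lpcat1. The 3 that held a match are shown 5′ to 3′ on the strand of the gene, with the matches in capitals. They are Sftpb (chr6:72304360-72304609, plus strand), Sftpa1 (chr14:41131538-41131787, plus strand) and Lamp3 (chr16:19706366-19706615, minus strand).
Sftpb: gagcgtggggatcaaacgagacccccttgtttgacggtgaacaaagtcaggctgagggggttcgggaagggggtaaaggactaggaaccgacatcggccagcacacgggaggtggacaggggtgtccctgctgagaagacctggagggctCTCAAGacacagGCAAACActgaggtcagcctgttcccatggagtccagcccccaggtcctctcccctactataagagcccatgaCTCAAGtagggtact
Sftpa1: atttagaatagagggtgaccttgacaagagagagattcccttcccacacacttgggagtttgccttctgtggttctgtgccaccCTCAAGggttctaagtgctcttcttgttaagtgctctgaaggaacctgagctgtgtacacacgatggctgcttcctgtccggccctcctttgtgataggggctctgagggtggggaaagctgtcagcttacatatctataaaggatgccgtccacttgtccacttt
Lamp3: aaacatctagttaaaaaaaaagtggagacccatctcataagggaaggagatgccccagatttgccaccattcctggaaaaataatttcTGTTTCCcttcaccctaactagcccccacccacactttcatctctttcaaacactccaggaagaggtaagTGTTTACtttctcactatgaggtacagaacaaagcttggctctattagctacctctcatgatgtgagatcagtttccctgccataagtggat

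The Sftpb window held CTCAAG at 2 places, 100 to 95 and 15 to 10 bases before the start, and TGTTTNC on the other strand 88 to 82 bases before it. Sftpa1 held 1 CTCAAG, 166 to 161 bases before the start, and Lamp3 held 2 TGTTTNC, at 162 to 156 and 92 to 86 bases. The windows of Abca3, Slc34a2 and Lpcat1 held neither set of letters. Of all 32851 windows of this length, 13.3% held CTCAAG and 17.8% held TGTTTNC, so that a match is common and describes letters only.

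Unique molecular identifiers (UMIs), each standing for 1 captured transcript, totalled 125261739 to 182014706 per mouse over all barcodes. Barcodes with 1500 or more UMIs (25269 to 44000 per mouse) were placed in a class when their marker genes exceeded the free RNA of that mouse. Barcodes that stood out for more than 1 class were left out. So were those that reached no class, 12350 to 32172 per mouse. None of the 9 genes was a marker. Free RNA was measured in 2732 to 18387 barcodes per mouse with 300 to 800 UMIs, called empty droplets, and levels are given as CPM, UMIs scaled to a total of 1000000. Pairs of libraries shared 0.697 to 1.30% of the barcodes of the smaller one. Tg replicate 1 stood apart in its free RNA, with the airway secretory gene Scgb1a1 at 128052 CPM in empty droplets against 15011 to 43359 CPM in the other mice. Mouse Terf2, which encodes TRF2, was at 53.7 and 52.4 CPM in endothelial-like nuclei of WT lungs and 45.7 and 46.4 CPM in those of Tg lungs. Whether transcripts of the transgene are counted under it was not tested.

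The AT2-like class held 931 and 1428 nuclei from WT lungs and 3864 and 4661 from Tg lungs, with a median of 3743, 4830, 2582 and 3477 UMIs. Of its 11 markers, 10 were more than 2-fold above the mean of the other classes and 10 were above empty droplets. S100g was the exception, at 34.3 CPM in the class against 26.7 CPM in the others and 74.2 CPM in empty droplets. The class is a range of a score and not a sharp type: 29.6 to 48.0% of its nuclei had a likelihood ratio between 100, the threshold, and 1000. Among the markers of other classes, those of airway secretory cells had a median of 31, 36, 117 and 57 UMIs per AT2-like nucleus (WT replicates 1 and 2, then Tg replicates 1 and 2), and those of alveolar macrophages 6, 17, 5 and 14. The markers of each other class had a median of 4 UMIs or fewer.

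As a check of what the genes mark, their levels were compared between AT2-like nuclei and nuclei of the flat alveolar type 1 (AT1) cells of the same mice. All 9 genes were higher in AT2-like nuclei, where 13.2% of the 14885 genes tested were higher, 15% were lower and 28.2% differed in either direction (edgeR's quasi-likelihood test on UMIs summed per mouse and class, Benjamini-Hochberg adjusted p under 0.05). Lamp3, a lysosomal membrane protein of the lamellar body, stood at 1974 and 1295 CPM in AT2-like nuclei of WT lungs and 807 and 971 CPM in those of Tg lungs. In AT1-like nuclei it was at 264, 189, 124 and 203 CPM in the same order, so that no AT1-like value reached the lowest AT2-like one. The log2 difference was 2.49 ± 0.11 (SE), a 5.61-fold higher level (adjusted p = 9.13e-29). Errors and p-values here and against empty droplets come from 1 fit over the sums of all classes, with 42 residual degrees of freedom. They are not a spread between mice alone. Sftpb, which is needed for lamellar body formation, differed by 2.10 ± 0.11 (adjusted p = 3.62e-25). The phosphate transporter gene Slc34a2 differed by 2.05 ± 0.11, Napsa, which encodes an aspartic protease that processes the surfactant protein B precursor, by 2.00 ± 0.17, and Abca3, the lipid pump of the lamellar body membrane, by 1.89 ± 0.10. Sftpd differed by 1.57 ± 0.11 and Lpcat1, an acyltransferase that makes the dipalmitoyl lipid of surfactant, by 1.49 ± 0.12. The differences of Sftpa1 (0.96 ± 0.12) and Sftpc (0.80 ± 0.12, adjusted p = 4.25e-08) were the smallest of the 9 in log2 units. The median of the 9 genes was 1.89, beside 0.01 over all genes tested.

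The comparison with empty droplets split the genes further. Abca3 was at 875, 848, 984 and 913 CPM in AT2-like nuclei and at 322, 279, 260 and 357 CPM in empty droplets (WT replicates 1 and 2, then Tg replicates 1 and 2), so that all nuclear values lay above all values of free RNA. The log2 difference was 1.59 ± 0.09 (SE, adjusted p = 4.66e-22). Lamp3 (1.40 ± 0.11), Sftpb (1.02 ± 0.11), Lpcat1 (0.93 ± 0.12), Slc34a2 (0.63 ± 0.10) and Napsa (0.62 ± 0.16, adjusted p = 0.000391) were also above empty droplets. Sftpd did not pass the test over all mice, at 0.16 ± 0.11 (adjusted p = 0.182), and passed it without WT replicate 2, Tg replicate 1 or Tg replicate 2 (adjusted p = 0.0159, 0.0248 and 0.00949).

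Sftpc and Sftpa1 went the other way. In the same order of mice, Sftpc was at 756, 1599, 7027 and 5230 CPM in AT2-like nuclei and at 1092, 2454, 15627 and 12937 CPM in empty droplets. The nuclear value was below the empty droplets of its own mouse in all 4 mice, and the log2 difference was -0.92 ± 0.12 (adjusted p = 7.18e-10). Sftpa1 was at 436, 564, 1196 and 991 CPM in nuclei and at 563, 697, 2139 and 2015 CPM in empty droplets, again lower in nuclei in all 4 mice (-0.66 ± 0.12, adjusted p = 1.20e-06). Of the 9 genes, 6 were thus higher and 2 lower in AT2-like nuclei, where 26% of all genes tested were higher, 41.8% were lower and 67.9% differed. The values depended on the window of UMIs for all genes. Against barcodes with at least 100 and under 300 UMIs, of which a mouse had 95 to 113, the median of all genes was 0.97 in place of -0.23, and the differences of Sftpc and Sftpa1 were 0.34 and 0.39 (adjusted p = 0.0827 and 0.247), again below that median.

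**Figure D1:**
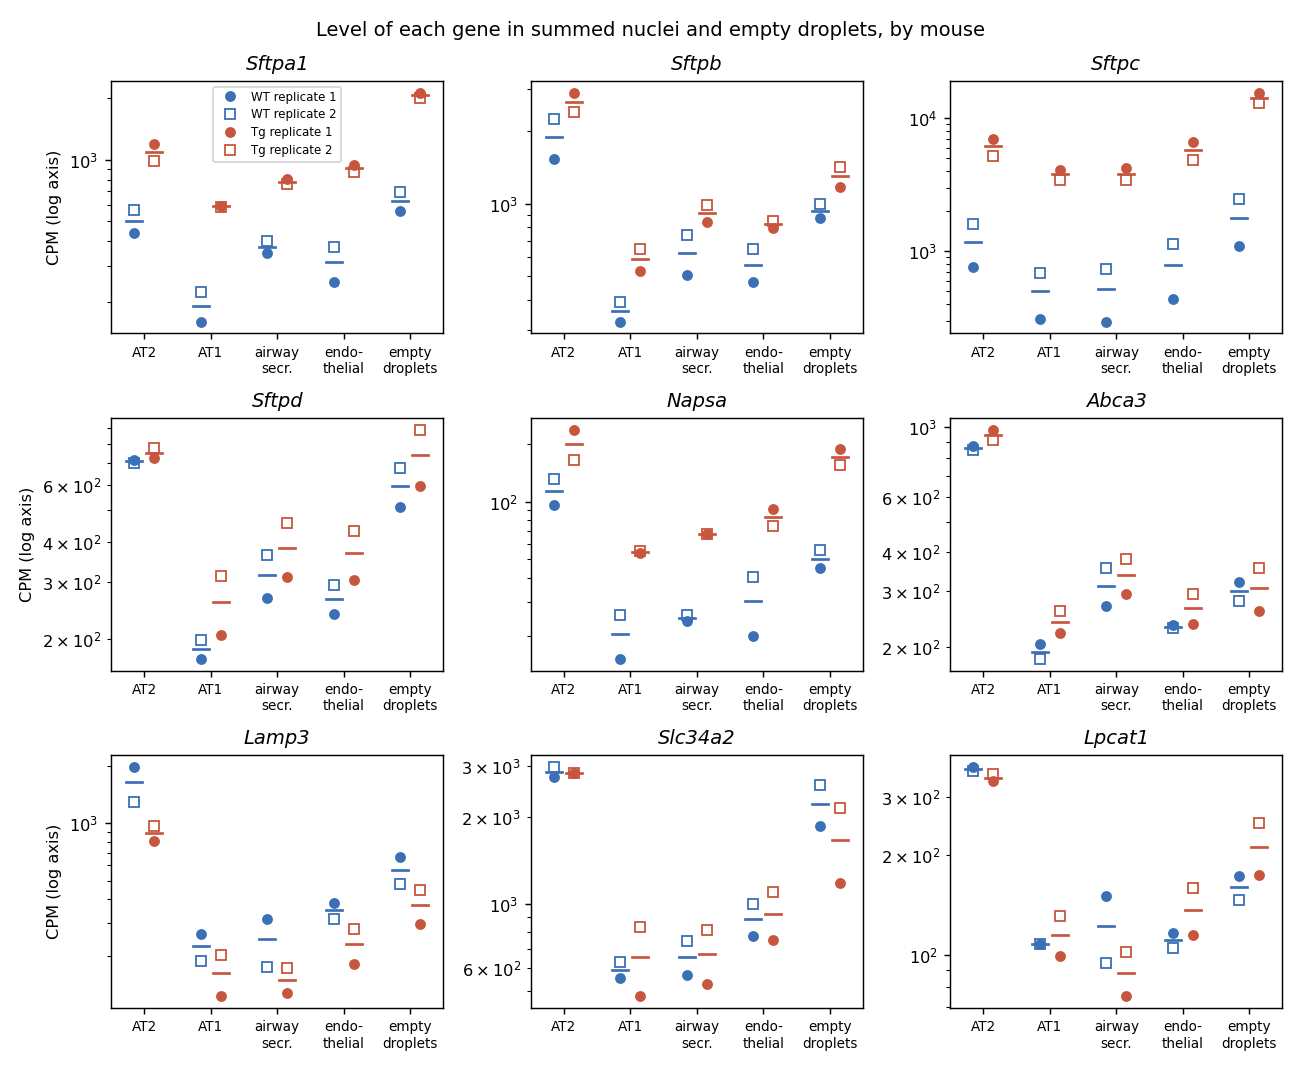
Levels in CPM (UMIs scaled to a total of 1000000, log axis, a scale of its own for each gene) of the 9 genes in summed AT2-like, AT1-like, airway secretory-like and endothelial-like nuclei and in empty droplets. Each point is 1 mouse (blue WT, red Tg) and each bar is the mean of 2 mice. Abca3, Lamp3 and Sftpb are highest in AT2-like nuclei of every mouse, and Sftpc and Sftpa1 are highest in empty droplets.

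Outside AT2-like nuclei, no gene was called above its level in empty droplets. Free RNA is only part of a nucleus sum, so a class below empty droplets can still exceed its own free RNA. By the estimate given below, free RNA was at most 36.6% of UMIs in the classes estimated in Tg lungs. There Abca3 was at 0.619 and 0.577 or more of its level in empty droplets in each other class. In WT replicate 1 the highest share was 62.7% and the lowest Abca3 level 0.494, and in WT replicate 2 they were 53.2% and 0.568. Share and level of a mouse are extremes over classes and can come from different classes. Whether a class makes a gene was not tested. In the 13 other classes with at least 20 nuclei in each mouse, 114 of 117 combinations of class and gene were below empty droplets at an adjusted p under 0.05 and 0 were above (0 also at an unadjusted p under 0.05), in the same edgeR fit across classes. Over all genes tested in these classes, 22.3% of combinations were above empty droplets and 32.4% below. The 3 combinations that were not called were Abca3 in airway secretory-like nuclei (log2 difference 0.06 ± 0.10), Abca3 in B-like nuclei (-0.21 ± 0.10) and Napsa in B-like nuclei (0.04 ± 0.18). The mice differed for Napsa in B-like nuclei. It was at 1.09, 2.25, 0.998 and 0.720 of its level in empty droplets (WT replicates 1 and 2, then Tg replicates 1 and 2). Free RNA was estimated at 62.7, 43.8, 33.7 and 34.8% of these sums. Abca3 had the highest difference of the 9 in 12 of the 13 classes, at -0.71 to 0.06, and Napsa had it in B-like nuclei. Sftpc was the furthest below empty droplets in all 13, at -1.29 in mural-like to -2.14 in ciliated-like nuclei.

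Levels in AT2-like nuclei were also set against the highest of the other classes in each mouse. For Sftpc, this ratio was 1.18, 1.26, 0.919 and 1.02, so that AT2-like nuclei were not the highest class in Tg replicate 1. Sftpa1 reached 1.10 to 1.25 and Napsa 1.04 to 1.97, with B-like nuclei as the next class for Napsa in each mouse. Over the 4 mice, the ratio was 2.70 to 3.74 for Lamp3, 2.37 to 3.35 for Abca3, 2.32 to 3.32 for Slc34a2, 2.12 to 2.94 for Sftpb, 2.12 to 2.55 for Lpcat1 and at least 1.62 for Sftpd.

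**Figure D2:**
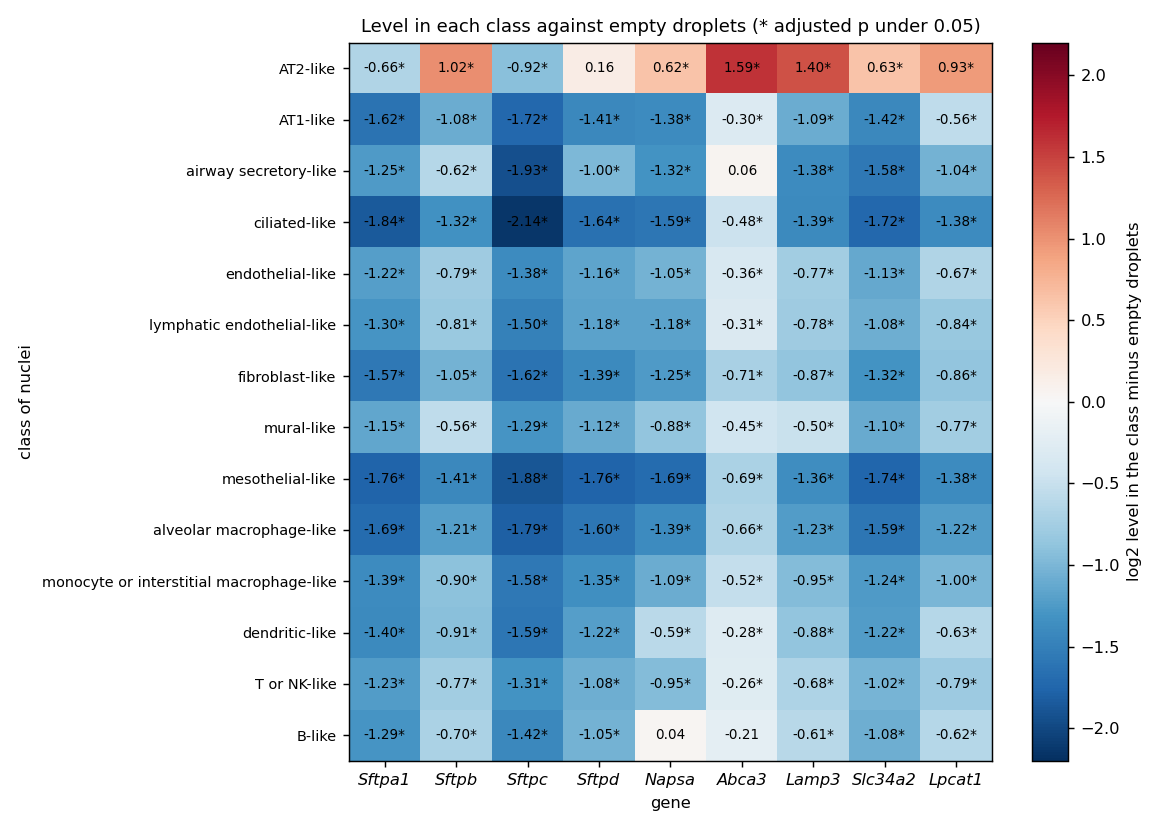
Log2 level of each gene in each class of nuclei minus its level in empty droplets, from 1 fit over all sums with a term for each mouse. Red is above and blue below empty droplets, and a star marks an adjusted p under 0.05: the AT2-like class alone holds starred red cells, for 6 genes.

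Single nuclei were compared after each was thinned to 1500 UMIs. Sftpb was then detected in 87.2, 91.2, 97.3 and 95.4% of AT2-like nuclei (WT replicates 1 and 2, then Tg replicates 1 and 2). In AT1-like nuclei of the same mice the share was 37.3, 45.6, 50.3 and 60.2%, given here as the level in a cell type not known for the gene. The part of free RNA in that share was not tested. Before thinning, the shares were 98.3 to 99.6% in AT2-like and 72.9 to 87.8% in AT1-like nuclei, the latter with a median of 3248 to 4799 UMIs. Lamp3 was detected in 92.1, 81.0, 67.1 and 73.3% of thinned AT2-like and in 34.0, 25.8, 17.3 and 25.9% of AT1-like nuclei. Abca3 was detected in 70.7, 64.7, 75.3 and 72.2% of AT2-like and in 24.9, 23.5, 24.6 and 29.8% of AT1-like nuclei. For these 3 genes the lowest AT2-like share exceeded the highest AT1-like share. The same held for Slc34a2 (96.2 to 97.4% against 47.5 to 70.1%), Sftpd (60.3 to 66.0% against 23.9 to 38.4%), Lpcat1 (38.4 to 41.2% against 14.3 to 17.9%) and Napsa (12.4 to 29.6% against 2.27 to 8.74%), while the shares of Sftpa1 overlapped (45.5 to 81.4% against 25.6 to 61.1%). How many of all genes separate the classes in this way was not counted.

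Sftpc was detected in 66.8, 88.2, 99.97 and 99.8% of thinned AT2-like nuclei, but also in 35.4, 68.7, 99.3 and 99.0% of AT1-like and 52.8, 81.8, 99.8 and 99.5% of endothelial-like nuclei. In Tg lungs a UMI of Sftpc therefore did not tell an AT2-like nucleus from another. Wilson 95% intervals were at most 3.95 percentage points to either side and cover counting error only. At least 5 of the 9 genes were detected together in 83.7, 88.3, 94.6 and 94.9% of AT2-like nuclei, in 9.49 to 37.3% of AT1-like and in 20.2 to 55.7% of endothelial-like nuclei.

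The share of a nucleus sum that free RNA could account for was estimated from 4 airway secretory genes and the profile of the empty droplets. It was 38.0, 37.0, 29.3 and 28.9% of all UMIs in AT2-like nuclei. For Sftpc, this expectation was 54.9 to 71.5% of the UMIs found in AT2-like nuclei, and for Sftpa1 45.7 to 58.8%. It was 7.72 to 14.0% for Abca3, 10.7 to 13.7% for Lamp3 and 11.9 to 21.7% for Sftpb. Every gene had UMIs left in AT2-like nuclei of every mouse after subtraction, from 79.3 CPM of Napsa in WT replicate 1 to 2556 CPM of Sftpb in Tg replicate 1. UMIs were also left outside this class. In mural-like nuclei of Tg replicate 1, Sftpc was at 0.489 of its level in empty droplets, where free RNA was estimated at 36.6%. UMIs left after subtraction are therefore no sign by themselves that a class makes the gene. How much free RNA remained was not tested.

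The same split was seen by gene length. Sftpc and Sftpa1, both under 5 kb, were below empty droplets, and the 4 genes over 20 kb were above them. Over all genes tested, the median log2 difference between AT2-like nuclei and empty droplets was -1.08 for 1492 genes under 5 kb, -0.54 for 4660 genes of 5 to 20 kb, -0.06 for 4180 genes of 20 to 50 kb and 0.19 for 4549 longer genes. All 9 genes were above the median of their own length range, Sftpc and Sftpa1 by the least. Across the 14881 genes with a length, Spearman's rho between length and difference was 0.41. Genes are not independent replicates, and all share the same libraries and depth.

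**Figure D3:**
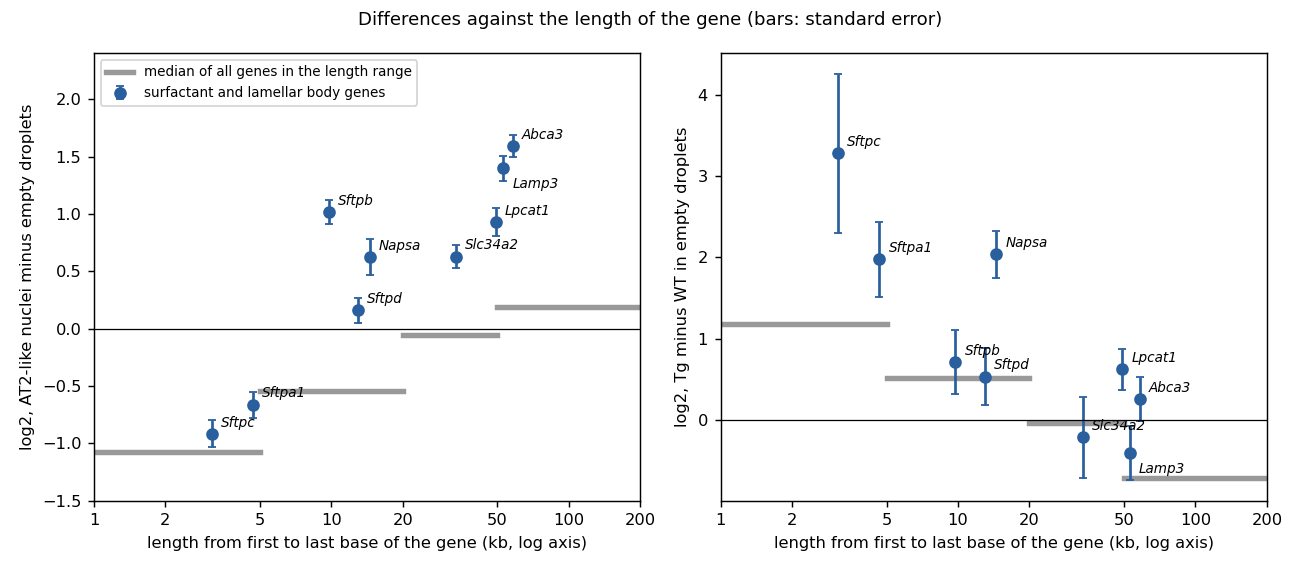
Left, log2 level in AT2-like nuclei minus empty droplets, and right, log2 Tg minus WT in empty droplets, both against the length of the gene (kb, log axis). Points are the 9 genes with their standard error, and grey lines are the medians of all genes tested in 4 length ranges. Sftpc and Sftpa1, under 5 kb, are the lowest points on the left and among the 3 highest on the right.

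The study compared Tg with WT lungs to learn what senescent ECs do to the lung. Within AT2-like nuclei, Sftpc and Sftpa1 were higher in Tg lungs, 2 of the 9 genes, where 7.16% of 15760 genes tested were higher, 0.78% were lower and 7.94% differed in either direction (edgeR, Benjamini-Hochberg adjusted p under 0.05). Sftpc rose from 756 and 1599 CPM to 7027 and 5230 CPM, with no overlap between the genotypes. The log2 difference was 2.36 ± 0.38 (SE), 5.12-fold, with an adjusted p of 0.0205. Sftpa1 rose from 436 and 564 CPM to 1196 and 991 CPM, by 1.10 ± 0.21 (2.14-fold, adjusted p = 0.0294). Without Tg replicate 1 neither was called, with log2 differences of 2.08 for Sftpc (adjusted p = 0.0802) and 0.91 for Sftpa1 (adjusted p = 0.133), and the calls over all genes went from 1251 to 63. Sftpa1 also missed the threshold without WT replicate 1 (adjusted p = 0.0855).

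The other 7 genes did not pass the test in AT2-like nuclei. Lamp3 was at 1974 and 1295 CPM against 807 and 971 CPM in Tg lungs, which did not overlap (log2 difference -0.93 ± 0.25, adjusted p = 0.0694). DESeq2 called Lamp3 lower (adjusted p = 0.00502), as did edgeR without WT replicate 2 (adjusted p = 0.0194) or without the filter on low counts (adjusted p = 8.36e-05). Napsa was at 96.3 and 132 CPM against 238 and 165 CPM (0.79 ± 0.25, adjusted p = 0.0889), and was called higher without Tg replicate 2 (adjusted p = 0.0442) and without the filter (adjusted p = 0.000491). Sftpb was at 1533 and 2254 CPM against 2902 and 2415 CPM (0.46 ± 0.25, adjusted p = 0.238). Slc34a2 was at 2743 and 2978 CPM against 2825 and 2829 CPM, with the Tg values inside the range of the WT values (-0.05 ± 0.19). The differences of Sftpd (0.04 ± 0.16), Abca3 (0.10 ± 0.17) and Lpcat1 (-0.13 ± 0.15) were no larger than their errors.

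The genotypes were then compared in empty droplets. Napsa was at 45.0 and 56.0 CPM in empty droplets of WT lungs and at 189 and 155 CPM in those of Tg lungs (log2 difference 2.04 ± 0.29, 4.11-fold, adjusted p = 0.0178). Sftpa1 rose from 563 and 697 CPM to 2139 and 2015 CPM (1.98 ± 0.46, adjusted p = 0.0280). The call of Sftpa1 was lost without each mouse in turn (adjusted p = 0.0538 to 0.202), and that of Napsa without Tg replicate 1 (adjusted p = 0.202). Sftpc went from 1092 and 2454 CPM to 15627 and 12937 CPM without overlap, by 3.28 ± 0.98, and missed the threshold (adjusted p = 0.0512). It passed when sums were scaled by total UMIs (adjusted p = 0.0114), with DESeq2 (adjusted p = 1.86e-14) and without the filter (adjusted p = 2.81e-06). The 2 called genes of 9 stand beside 25.6% of 15180 genes called in empty droplets, 14.5% higher and 11% lower, which is near the members' share. Lpcat1 (0.62 ± 0.25), Sftpb (0.71 ± 0.39), Sftpd (0.54 ± 0.35), Abca3 (0.26 ± 0.27), Slc34a2 (-0.21 ± 0.50) and Lamp3 (-0.41 ± 0.33) did not pass the test. Over all genes the median difference in empty droplets was 0.04 with TMM scaling and -0.22 with total UMIs.

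In free RNA, fewer cells of a type and less RNA per cell cannot be told apart. All 9 genes together took 0.610 and 0.835% of the UMIs of empty droplets in WT lungs and 2.16 and 2.06% in Tg lungs, and Sftpc alone supplied 17.9, 29.4, 72.2 and 62.8% of these. In AT2-like nuclei the 9 genes took 0.950, 1.07, 1.70 and 1.46% of the UMIs, of which Sftpc supplied 7.96, 14.9, 41.2 and 35.7%.

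Transcripts of other cell types also differed between genotypes in free RNA, some higher and some lower in Tg lungs. Hbb-bs, a haemoglobin gene of red cells, was at 82.9 and 112 CPM in empty droplets of WT lungs and at 4742 and 2749 CPM in those of Tg lungs. The 10 airway secretory markers summed to 20616 and 18150 CPM against 143017 and 50864 CPM in empty droplets, and to 7882 and 6830 CPM against 42333 and 15157 CPM in AT2-like nuclei. Of these 10, 5 were above both WT values in both Tg libraries in each of these, 1 was lower in nuclei and 3 were lower in empty droplets, and none was at 0. The 8 dendritic markers summed to 217 and 328 CPM against 100 and 185 CPM in empty droplets, with 5 lower and 0 higher. The 11 T or NK markers summed to 298 and 361 CPM against 95.4 and 259 CPM there, with 5 lower and 1 higher. In AT2-like nuclei the 6 mesothelial markers summed to 81.9 and 171 CPM against 430 and 479 CPM, all 6 above both WT values in both Tg libraries. The 12 mural markers were low, at 34.9 and 37.4 CPM against 69.8 and 61.8 CPM together, with 11 above. Of 10 AT1 markers 6 were above and 2 below, of 12 endothelial markers 6 and 0, and of 11 T or NK markers 2 and 5. The 11 AT2 markers summed to 12641 and 10853 CPM against 8994 and 9556 CPM in AT2-like nuclei, 5 of them below both WT values and 1 above. In empty droplets they summed to 4031 and 3233 CPM against 2224 and 3054 CPM, with 6 below and 3 above. For the remaining classes in AT2-like nuclei, numbers above and then below follow. Ciliated markers were 2 and 4 of 12, lymphatic endothelial 1 and 2 of 5, and fibroblast 3 and 1 of 10. Alveolar macrophage markers were 5 and 0 of 10, monocyte 1 and 0 of 10, and dendritic 0 and 2 of 8. Neutrophil markers were 3 and 0 of 6 and B markers 0 and 0 of 7. In empty droplets, mesothelial markers were 5 and 0 of 6 and mural 8 and 1 of 12. The share of all genes that separate the genotypes in this way was not counted, so these are descriptions only. Over all genes, the median Tg minus WT difference in empty droplets was 1.18 for genes under 5 kb, 0.52 for 5 to 20 kb, -0.03 for 20 to 50 kb and -0.71 for longer genes. In AT2-like nuclei the medians were 0.93, 0.33, -0.03 and -0.33 in the same order. Sftpc and Sftpa1 fall in the range with the highest median and Lamp3 and Abca3 in that with the lowest. The part of airway RNA and of gene length in the genotype differences was not tested, and free RNA was examined as follows.

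**Figure D4:**
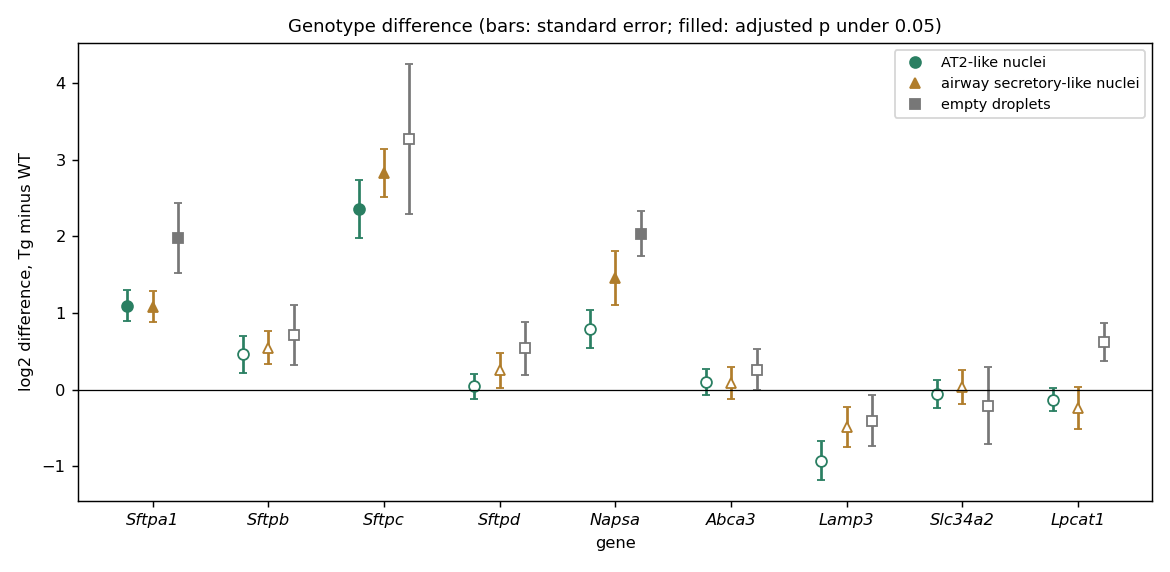
Log2 difference between Tg and WT mice for each gene in AT2-like nuclei (circles), airway secretory-like nuclei (triangles) and empty droplets (squares). Bars are standard errors and filled symbols passed an adjusted p of 0.05. Sftpa1, Sftpc, Napsa, Sftpb, Sftpd and Abca3 lie above 0 in all 3, and Lamp3 below 0 in all 3.

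A first comparison asked whether the genotype difference in AT2-like nuclei was other than that in empty droplets of the same mice. It was smaller for Napsa (by a log2 difference of -1.11 ± 0.18, adjusted p = 4.08e-08), Sftpc (-0.81 ± 0.24, adjusted p = 0.00734), Sftpa1 (-0.75 ± 0.19, adjusted p = 0.00137) and Lpcat1 (-0.62 ± 0.17, adjusted p = 0.00337). Called were thus 4 of the 9 genes, all lower, where 3.18% of 16242 genes were lower, 15.1% were higher and 18.3% differed. These p-values use a spread that edgeR pooled fully over all genes, with 2 residual degrees of freedom for each. Napsa kept its call without each mouse and when scaled by total UMIs (adjusted p = 0.000274). Sftpc, Sftpa1 and Lpcat1 lost theirs without WT replicate 1, at differences of -0.76, -0.78 and -0.72 (adjusted p = 0.332, 0.108 and 0.0522). They also lost them without WT replicate 2, at -0.87, -0.74 and -0.55 (adjusted p = 0.190, 0.104 and 0.149). With total UMIs, Sftpa1 stood at -0.59 (adjusted p = 0.0496), Sftpc at -0.65 (0.0781) and Lpcat1 at -0.47 (0.0978). Sftpb, Sftpd, Lamp3, Abca3 and Slc34a2 did not pass the test, with differences of -0.37 to 0.30, and Slc34a2 passed it without Tg replicate 2 (0.62, adjusted p = 0.0177).

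A second comparison subtracted the expected free RNA from AT2-like sums before the genotypes were compared. The difference was then 1.61 for Sftpc (adjusted p = 0.0859), 0.56 for Sftpa1 (adjusted p = 0.197), 0.34 for Napsa (adjusted p = 0.453) and -1.21 for Lamp3 (adjusted p = 0.0711). Lpcat1 stood at -0.45 (adjusted p = 0.0976), Sftpb at 0.24, Slc34a2 at -0.13, Abca3 at -0.14 and Sftpd at -0.20. After subtraction 0 of the 9 genes passed edgeR's test, with 3 at an unadjusted p under 0.05. Of all 14272 genes, 315 passed and 3894 were at an unadjusted p under 0.05. Before it, Sftpc and Sftpa1 had passed. Since the estimate also leaves Sftpc in another class, free RNA may remain in the subtracted sums.

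Airway secretory-like nuclei, 24 and 112 from WT lungs and 259 and 293 from Tg lungs, were examined because club cells are known to make surfactant proteins. The class had 6 of 10 markers more than 2-fold above the other classes and 5 above empty droplets. Scgb1a1, Scgb3a1 and Scgb3a2, the abundant secretoglobins, were in neither group. Sftpc was at 292 and 736 CPM against 4224 and 3451 CPM in Tg lungs (log2 difference 2.83 ± 0.31, adjusted p = 4.14e-05). Sftpa1 was at 348 and 398 CPM against 801 and 761 CPM (1.08 ± 0.20, adjusted p = 0.00358). Napsa was at 23.7 and 25.6 CPM against 67.6 and 68.1 CPM, on 3, 20, 62 and 94 UMIs (1.46 ± 0.35, adjusted p = 0.0177). For each of these genes the genotypes did not overlap. The differences of Sftpb (0.55 ± 0.22, adjusted p = 0.168), Sftpd (0.25 ± 0.22), Abca3 (0.09 ± 0.21), Slc34a2 (0.04 ± 0.23), Lpcat1 (-0.24 ± 0.27) and Lamp3 (-0.49 ± 0.26, adjusted p = 0.324) did not pass the test. Called higher were 3 of the 9 genes, where 5.1% of 9622 genes were higher, 0.873% were lower and 5.98% differed. The call of Napsa was lost without WT replicate 2 (adjusted p = 0.208), Tg replicate 1 (0.0618) or Tg replicate 2 (0.124) and with DESeq2 (adjusted p = 0.325). All 3 genes were below the empty droplets of the same mice in this class, by log2 differences of -1.25 for Sftpa1, -1.32 for Napsa and -1.93 for Sftpc. The higher values in Tg lungs were not particular to AT2-like or airway secretory-like nuclei. Over the 13 classes other than AT2-like, Sftpc was at most 642 and 1273 CPM in WT lungs and at least 3241 and 2867 CPM in Tg lungs. Sftpa1 was at most 348 and 471 CPM against at least 525 and 522 CPM.

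AT2-like nuclei made up 21.9% (Wilson 95% interval 20.7 to 23.2) and 24.0% (22.9 to 25.1) of classed barcodes in WT lungs, and 33.3% (32.4 to 34.2) and 33.4% (32.6 to 34.1) in Tg lungs. Means were 23.0 ± 1.47% and 33.3 ± 0.045% (SD, n = 2 each). An exact two-sided permutation test gave p = 0.33, the smallest value that 2 against 2 mice allow. With at least 3000 UMIs per barcode the shares were 26.1, 28.6, 26.7 and 35.1%, and the genotypes overlapped. Barcodes without a class are not in these shares. At 1500 or more UMIs they were 22496 of 26933 and 32172 of 38543 in WT lungs, and 12350 of 25269 and 28437 of 44000 in Tg lungs. The part of barcodes that could be classed thus differed between genotypes, and the shares are not shares of all nuclei.

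Genes of the surfactant pathway outside the 9 were read from 4 lists. For processing, lamellar bodies and secretion, 4 of 12 genes were higher and 1 was lower in AT2-like than in AT1-like nuclei, beside 13.2% and 15% of all genes tested, with Ctsh, a cathepsin that trims surfactant proteins B and C, at 1.54 ± 0.10, and Adgrf5, a receptor that limits the surfactant pool, at 1.16 ± 0.11. Between genotypes in AT2-like nuclei 0 of the 12 passed edgeR's test, with 3 at an unadjusted p under 0.05 and 2 called by DESeq2. Of all 15760 genes, 1251 passed edgeR's test, 5133 were at an unadjusted p under 0.05 and 1990 were called by DESeq2. The list's median of 0.16 stands beside 0.04 over all genes. Of 17 genes of phospholipid and fatty acid synthesis, 12 were higher in AT2-like than in AT1-like nuclei and 1 lower, beside the same shares of all genes. Gpam, which starts glycerolipid synthesis, was higher by 2.35 ± 0.10, Acsl4, a fatty acid activating enzyme, by 1.84 ± 0.09 and Acaca, acetyl-CoA carboxylase, by 1.75 ± 0.11. Their median was 0.80, beside 0.01 over all genes.

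Between genotypes, 2 of these 17 passed in AT2-like nuclei, both higher in Tg lungs, which is near the 7.16% higher over all genes. Fabp5, a fatty acid binding protein, was at 35.2 and 42.4 CPM against 113 and 106 CPM (1.46 ± 0.16, adjusted p = 0.0152). Pltp, a phospholipid transfer protein, was at 18.4 and 27.2 CPM against 72.4 and 50.03 CPM (1.38 ± 0.28, adjusted p = 0.0337). In AT2-like nuclei Fabp5 and Pltp lay below empty droplets, at log2 differences of -1.16 ± 0.12 and -1.43 ± 0.15. Both were higher in empty droplets of Tg lungs too, by 1.94 ± 0.30 and 1.91 ± 0.31, and both lost the call in nuclei without Tg replicate 1, at 1.37 and 1.05 (adjusted p = 0.0548 and 0.162). After free RNA was subtracted their differences in nuclei were larger, 1.64 and 1.77, but not called (adjusted p = 0.0506 and 0.336). Pltp also lost it with at least 3000 UMIs per barcode (adjusted p = 0.0503).

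Of 11 transcriptional regulators, 5 were higher and 3 lower in AT2-like than in AT1-like nuclei, beside 13.2% and 15% of all genes. The 5 include Etv5, a marker that defines the AT2-like class, whose difference of 2.97 ± 0.13 is therefore no finding. Between genotypes 1 of the 11 passed, near the 7.94% of all genes. Nkx2-1, the factor whose core is marked in the Sftpb and Sftpa1 sequences, fell from 400 and 316 CPM in AT2-like nuclei of WT lungs to 162 and 198 CPM in those of Tg lungs (-1.04 ± 0.19, adjusted p = 0.0277). Its genotypes did not overlap, and it fell in empty droplets as well (-0.99 ± 0.25, adjusted p = 0.0325). The call in nuclei was lost without WT replicate 1 (-0.83, adjusted p = 0.0589) and without Tg replicate 1 (-0.93, adjusted p = 0.159). After subtraction the difference was as large, -1.12, and not called (adjusted p = 0.0604). Between AT2-like and AT1-like nuclei it did not pass the test (-0.19 ± 0.11, adjusted p = 0.231). Of 5 genes by which macrophages clear surfactant, 1 passed between genotypes in AT2-like nuclei, Csf2ra, a chain of the GM-CSF receptor (1.12 ± 0.23, adjusted p = 0.0376), beside 7.94% of all genes. Csf2ra kept the call without WT replicate 2 and lost it without each of the other 3 mice, at 0.88 to 1.26 (adjusted p = 0.0739 to 0.116), and after subtraction, at 1.05 (adjusted p = 0.0954). It was higher in empty droplets of Tg lungs too, by 1.59 ± 0.28 (adjusted p = 0.0185). The median of the 5 genes between genotypes was 1.07 in AT2-like nuclei, beside 0.04 over all genes. DESeq2 called 3 of them, beside 1990 of all 15760 genes. All 5 were below empty droplets in AT2-like nuclei, where 41.8% of all genes were. Pparg and Abcg1 among them are markers of the alveolar macrophage-like class, so that the class rule itself favours low levels of both here.

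As genes with a like pattern, those whose log2(CPM + 1) followed the mean of the 9 standardized profiles most closely were sought over 60 sums of class and mouse, empty droplets included. Among 15991 genes, Cxcl15 (Pearson's r 0.93), Lgi3 (0.91) and Chil1 (0.87) led, all 3 used as AT2 markers. Fasn (0.86), Npc2 (0.84), Cat (0.83), Ctsh (0.82), Eif4h (0.81), Elovl1 (0.81) and Tgoln1 (0.80) followed. Within the 9 genes, Sftpb (0.97) and Sftpd (0.95) lay closest to the mean that they help to make, and Sftpc (0.58) and Lamp3 (0.59) furthest from it. The sums share libraries and free RNA, so that these are descriptions only.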

How the data were processed

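For each mouse the authors deposited an unfiltered matrix of UMI counts per gene and barcode. Per the labels, Cell Ranger 6.1.1 and build mm10 were used, while the file headers name Cell Ranger 4, and the paper states that intronic reads were included. No calls of nuclei or classes by the authors were used, and both were rebuilt here. A barcode was placed in 1 of 15 classes by a likelihood ratio over 100, with at least 2 distinct markers, of its marker UMIs against the empty droplets of the mouse (1500 CPM split over the markers of a class). Classes needed 20 nuclei in each mouse, which left out neutrophil-like barcodes. The scoring rule was chosen after counts per class were seen. No doublet caller was run, and barcodes past the threshold for several classes were left out. UMIs were summed per mouse, scaled by TMM after edgeR's filter on low counts, and tested with edgeR's quasi-likelihood test (R 4.3.3, edgeR 4.0.16), adjusted over all genes. The fits were tested on simulated data. CPM values scale the UMIs of a sum to 1000000 without TMM, so that fitted differences can depart from ratios of CPM. All 9 genes were named in every test. Of 4 pathway lists, those past the threshold between genotypes were named, and the examples between AT2-like and AT1-like nuclei, with Nkx2-1 there, were chosen after their values were seen. The 10 genes with the most similar pattern, among those with at least 200 UMIs, were also named. The members and lists were chosen with earlier results of these data known. The replicates are separate mice by their labels, and 2 per group give little precision. Alternatives were DESeq2 1.42.0, total UMI scaling, no filter, a replicate block, each mouse left out, other UMI limits, free RNA subtraction, several-class barcodes kept and a stricter ratio of 1000. Gene positions are from GENCODE M21 and promoters from RefSeq, both on GRCm38.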

Additional observations from a re-analysis of the deposited data

Results flagged for a closer look

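For 4 genes, the Tg minus WT difference in AT2-like nuclei differed from that in the empty droplets of the same mice (edgeR, adjusted p under 0.05 for the difference itself). The log2 difference of the differences was -0.75 for Sftpa1, -0.81 for Sftpc, -1.11 for Napsa and -0.62 for Lpcat1. Over all genes tested, 3.18% were lower, 15.1% were higher and 18.3% differed. The spread behind these calls was pooled fully over all genes. Without WT replicate 1, and likewise without WT replicate 2, only Napsa of the 4 kept its call. The differences of Sftpa1, Sftpc and Napsa were above 0 in both and smaller in nuclei, where Napsa did not pass the test, as Sftpc did not in empty droplets (adjusted p = 0.0889 and 0.0512). Lpcat1 was at 369 and 358 CPM in AT2-like nuclei of the WT mice and 334 and 350 CPM in those of the Tg mice, while in empty droplets it was at 173 and 147 CPM against 174 and 250 CPM.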

How the results depend on the processing

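The other UMI limits, several-class barcodes and the stricter ratio left the calls of Sftpc and Sftpa1 in AT2-like nuclei in place. Over 420 results of the 9 genes under alternatives, 181 of those without 1 mouse and 181 of the others kept direction and side of the threshold, 12 and 8 reversed, 17 and 7 lost a call and 6 and 8 gained one. The causes were not tested. The 1251 genes called between genotypes in AT2-like nuclei became 1990 with DESeq2, 3857 without the filter, 2534 with a replicate block, 315 after free RNA subtraction and 63 (without Tg replicate 1) to 1890 without 1 mouse. The 3883 in empty droplets became 0 (without Tg replicate 1, by edgeR, with 3232 at an unadjusted p under 0.05) to 4802, and 814 without Tg replicate 2. From barcodes with under 300 UMIs, 61 of 224 were called. The 2968 whose genotype difference was other in nuclei than in empty droplets became 1175 to 3159 without 1 mouse (1196 without WT replicate 1, 1938 without WT replicate 2, 1175 without Tg replicate 1). The 10104 of AT2-like nuclei against empty droplets became 1460 with the window under 300 UMIs, where Sftpa1 stood at 0.3887 and Sftpc at 0.3353 while the median of all genes went from -0.23 to 0.97. The 575 in airway secretory-like nuclei became 187 with DESeq2 and 263 to 698 without 1 mouse (342 without Tg replicate 1, 263 without Tg replicate 2).

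Signs that turned belonged to uncalled differences apart from those 2 genes. In AT2-like nuclei, Sftpd was at -0.04694 with 3000 UMIs, -0.1996 after subtraction and -0.01343 to 0.07984 without 1 mouse, and Abca3 at -0.137 after subtraction. In empty droplets, Sftpb was at -0.2056 under 300 UMIs and Slc34a2 at -0.5288 to 0.04508 without 1 mouse. For the genotype difference in nuclei minus that in empty droplets, total UMIs gave Sftpb 0.03814 and Abca3 0.1236, and leaving out 1 mouse gave Sftpb -0.2963 to 0.05133, Abca3 -0.1978 to 0.1458 and Slc34a2 -0.0121 to 0.6201. In airway secretory-like nuclei the ranges were -0.06363 to 0.3944 for Abca3 and -0.2486 to 0.3022 for Slc34a2.

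Scaled by total UMIs, higher calls were 1757 of 4257 in empty droplets against 2208 of 3883, 3470 of 4920 between AT2-like and AT1-like nuclei against 1968 of 4203, and 3251 of 3414 against 2452 of 2968 for the genotype difference in nuclei minus that in empty droplets. Replicate numbers do not mark shared animals, and the deviations of same-numbered mice correlated at 0.12 in AT2-like nuclei, 0.13 in empty droplets and -0.01 in airway secretory-like nuclei. With the replicate block, 4685 and 614 genes were called in the last 2, and among the 9 genes Sftpa1 lost its call in empty droplets (adjusted p = 0.0715).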
